A study of Mus musculus with 6 samples.

Results

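The genes that carry the vitamin D signal inside a cell were followed here: the receptor Vdr, its dimerization partners Rxra and Rxrb, the activating hydroxylases Cyp2r1, Cyp27a1 and Cyp27b1, and the inactivating hydroxylase Cyp24a1. They were chosen by symbol for their place in the pathway, and all 7 stand among the 23413 genes of the count table. RNA-seq was done on alveolar macrophages lavaged from wild-type (WT) mice, in 3 groups of 2 libraries. Cells of the LPS group were held in vitro for 4 h with lipopolysaccharide (LPS), a wall component of Gram-negative bacteria, at 100 ng/mL. Cells of the LPS + VD3 group received the same LPS and 50 nM vitamin D3 (VD3) for the same 4 h. Control cells carry no agent in the labels, and no group received VD3 alone. The sources used here do not state their time in culture, the form of VD3 used, or the strain, age and number of the mice. In every comparison with control, LPS and time in culture therefore cannot be told apart, and "after LPS" names the group only.

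As background, vitamin D3 is an inert prohormone. The 25-hydroxylases, chiefly CYP2R1 and also CYP27A1, turn it into 25-hydroxyvitamin D, and the 1alpha-hydroxylase CYP27B1 turns that into the hormone 1,25-dihydroxyvitamin D. The hormone binds VDR, which pairs with an RXR protein on DNA and raises or lowers target genes, among them Cyp24a1, whose product starts the breakdown of both the hormone and its precursor. Macrophages are known to hold VDR, and activated macrophages are a known site of CYP27B1 activity outside the kidney.

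Total counts per library lay between 5022314 and 5465223, and levels below are CPM, counts scaled to a common library size and adjusted by the TMM method. The libraries of 1 group were not equally alike. LPS 1 and LPS 2 had a Pearson correlation of log2 CPM across genes of 0.972, against 0.993 for the control and 0.984 for the LPS + VD3 libraries, and their difference followed GC content (Spearman's rank correlation across genes 0.662, against 0.240 and 0.182). LPS 2 correlated with the LPS + VD3 libraries at 0.978 and 0.972, no lower than with LPS 1. Against the LPS + VD3 libraries, the GC correlation was 0.0653 and 0.189 for LPS 2 but 0.597 and 0.586 for LPS 1. LPS 1 is also the library whose title comes from another number series, so some changes of Vdr, Rxra, Rxrb and Cyp2r1 are also given without it. Most other changes that involve the LPS group are given with LPS 1 only. All 15 alveolar macrophage markers were measured above the filter in these libraries, with a summed level of 26500 to 31790 CPM, the largest part of it Chil3. In LPS against control the markers that passed went both ways, with more of them lower than higher. Krt79 and Atp6v0d2 were among the lower ones (log2 changes -1.79 and -1.54, edgeR adjusted p = 6.12e-05 and 0.000122). Car4 and Marco were among the higher ones (1.41 and 1.29, edgeR adjusted p = 0.000285 and 9.72e-05). Chil3 did not pass (0.14, edgeR adjusted p = 0.591). Summed markers of lymphocytes (7 genes, Cd3e, Nkg7 and Ncr1 at 0 counts throughout), lung epithelium (7 genes, Sftpc at 0) and endothelium and stroma (5 genes, Col3a1 at 0) were at 0.480 to 3.84 CPM. Of 5 neutrophil markers, S100a9, Mpo, Elane and Retnlg had 0 counts, and the sum was 9.60 to 20.1 CPM. The sum of 5 monocyte markers, 1 of them at 0 counts, was 10.1 to 11.7 CPM in control, 269.9 to 368 in LPS and 181 to 207 in LPS + VD3. Its 2 tested genes moved in opposite directions: against control, Vcan rose by 6.47 on the log2 scale in LPS and 5.75 in LPS + VD3 (edgeR adjusted p = 5.6e-08 and 1.07e-07), while Ccr2 was 8.01-fold and 29.5-fold lower (0.00028 and 5.95e-05). The sum of 4 dendritic cell markers was 16.6 to 23.5 CPM in control, 7.58 to 9.70 in LPS and 13.1 to 13.2 in LPS + VD3. Here too the 2 tested genes parted, with Clec9a lower than control by log2 changes of -1.95 and -1.76 (edgeR adjusted p = 0.000608 and 0.000978) and Xcr1 higher by 2.05 and 3.26 (0.00856 and 0.000189). Of 4 genes that were listed for eosinophils, Prg2 and Epx had 0 counts, and the sum, mostly Siglece, was 33.5 to 35.4, 68.7 to 90.8 and 160 to 197 CPM. Il5ra, the only other one with counts, was at 1.23 to 3.18 CPM and never passed (edgeR adjusted p at least 0.53). The rise of this sum is thus that of Siglece alone and is no measure of eosinophil number. The part of these marker levels in the results below was not tested.

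Vdr encodes the receptor, and its RNA was high in control, nearly absent in LPS and at a level between them in LPS + VD3. The control libraries held 451 and 499 counts of Vdr. The LPS libraries held 23 and 19, and 157 and 197 were found with LPS + VD3. The scaled levels were 77.2 and 79.9 CPM, 4.71 and 3.84 CPM, and 32.8 and 39.2 CPM. The 3 groups did not overlap, and the LPS + VD3 libraries stood between the other two groups. After LPS, Vdr fell from 78.5 ± 1.91 to 4.28 ± 0.619 CPM (SD, n = 2 each), 18.3-fold, with a log2 change of -4.19 ± 0.22 (SE; edgeR quasi-likelihood test, Benjamini-Hochberg adjusted p = 5.4e-07). It held rank 26 by fold among the 1732 genes called lower in LPS than in control. With VD3 added to LPS, Vdr rose 8.39-fold to 36.0 ± 4.48 CPM, a log2 change of 3.07 ± 0.23 (edgeR adjusted p = 0.000102), at rank 21 of the 241 raised genes. It stayed below control by 2.18-fold (log2 change -1.12 ± 0.17, 95% confidence interval -1.51 to -0.73, edgeR adjusted p = 7e-04). Without LPS 1 the changes against the LPS group were -4.35 ± 0.25 and 3.22 ± 0.27 on the log2 scale, and Vdr kept its direction and its call in all 3 comparisons in each of 16 other analyses. In bulk RNA, fewer cells that express a gene and less RNA of it per cell cannot be told apart, here and below. Nothing in the labels says that libraries came from separate mice or cultures, so every p-value measures only how these libraries spread, which may be technical variation.

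Rxra encodes the retinoid X receptor alpha, a partner of VDR and of several other nuclear receptors, and it was lower after LPS whether or not VD3 was present. Rxra was at 204.8 and 201 CPM in control (1197 and 1259 counts), 104.9 and 85.2 CPM with LPS (512 and 422 counts), and 69.2 and 57.8 CPM with LPS + VD3 (331 and 291 counts). No library of 1 group overlapped another group, and the order was control, then LPS, then LPS + VD3. In LPS, Rxra was 2.14-fold lower than in control, a log2 change of -1.10 ± 0.17 (edgeR adjusted p = 0.000662). LPS + VD3 stood 3.20-fold below control (-1.68 ± 0.17, edgeR adjusted p = 4.28e-05). The step from LPS to LPS + VD3 was -0.58 ± 0.17, with a 95% interval of -0.96 to -0.20, and did not pass (edgeR adjusted p = 0.0994). That step passed at adjusted p = 0.0303 with the replicate number as a block (-0.58) and at 0.0028 without LPS 2 (-0.72), and missed at 0.153 without LPS 1 (-0.43). It was smallest with offsets for GC content, by which the LPS libraries differ, at -0.29 (adjusted p = 0.202). Both changes against control passed in each of 16 other analyses. The levels of Vdr and Rxra lay in opposite directions from LPS when VD3 was added. In the LPS + VD3 libraries Vdr was at 41.8% and 49.9% of its control mean, while Rxra was at 34.1% and 28.5%. Set per kilobase of exon, Vdr amounted to 36.4% and 38.3% of Rxra in control. It amounted to 4.34% and 4.35% with LPS, and to 45.9% and 65.4% with both agents. Both LPS libraries lay below all others in this ratio, whereas the LPS + VD3 libraries differed more from each other than the nearer of them did from control. No test was made of it.

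**Figure D1:**
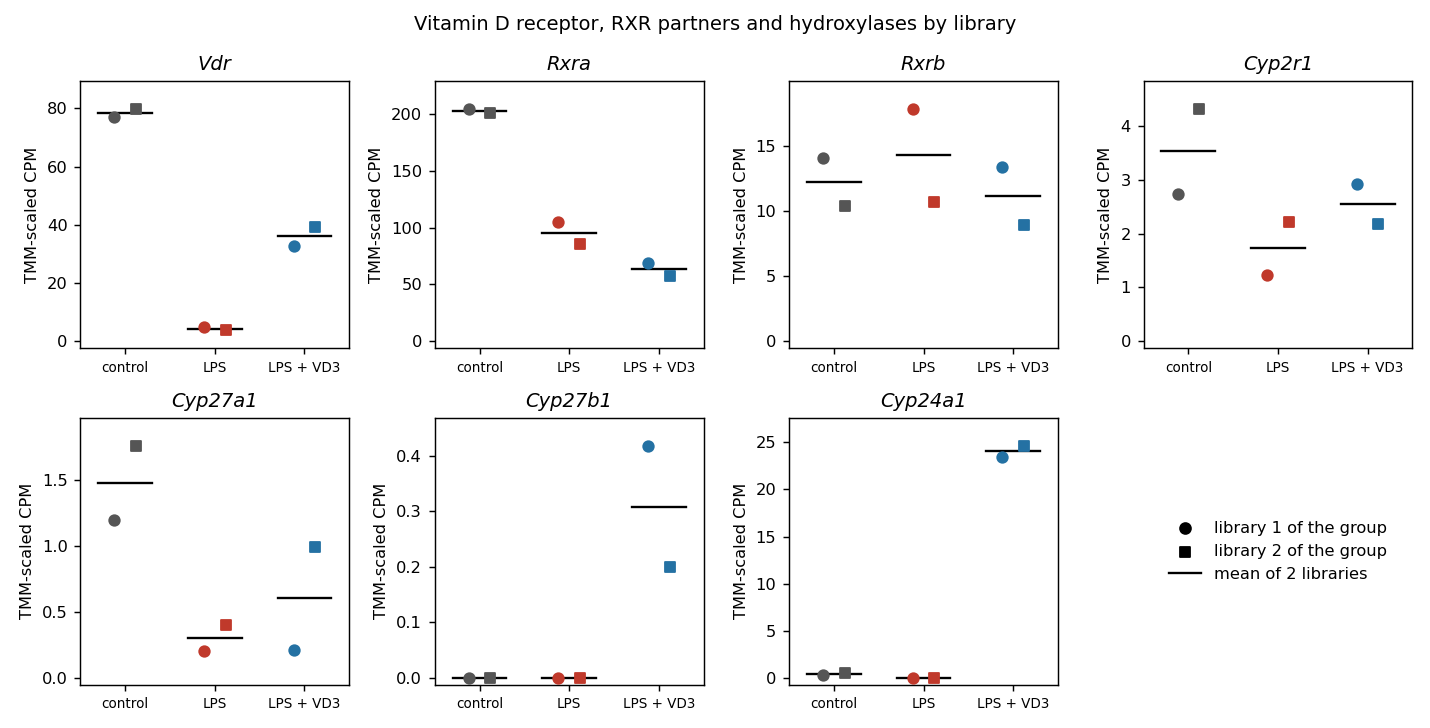
TMM-scaled CPM of the 7 genes in each of the 6 libraries, 1 panel per gene with its own linear axis from 0 (circles library 1, squares library 2, lines the mean of 2 libraries). Vdr drops from 78.5 CPM in control to 4.28 in LPS and stands at 36.0 in LPS + VD3, whereas Cyp24a1 is at 23.4 and 24.6 CPM in LPS + VD3 and near 0 elsewhere.

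**Figure D2:**
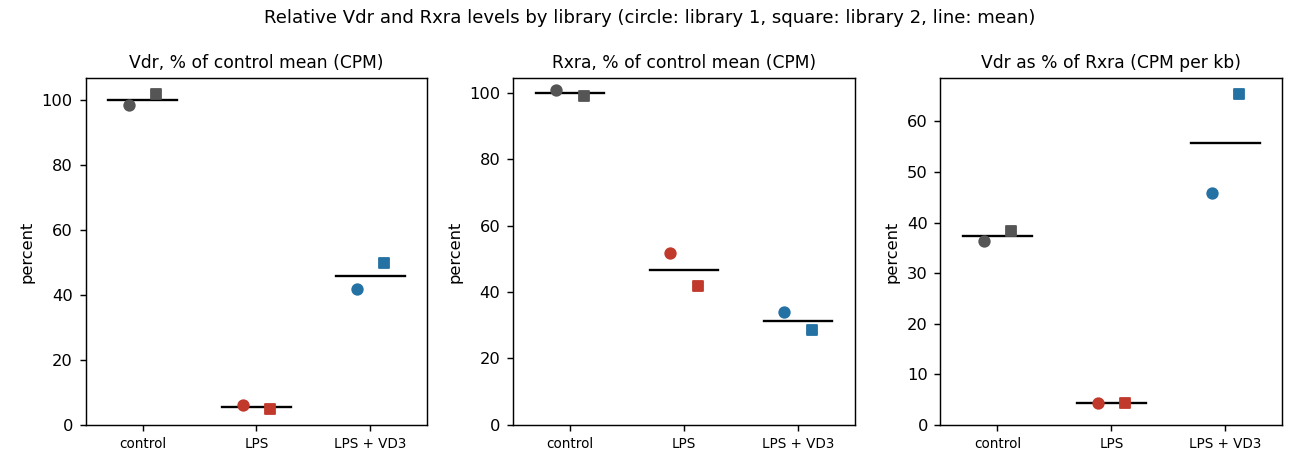
Left and middle, Vdr and Rxra in each library as a percent of the control mean; right, Vdr per kilobase as a percent of Rxra per kilobase. Vdr is at 6.0% and 4.89% of control in the LPS libraries against 51.6% and 42.0% for Rxra, and the right panel falls from 36.4% and 38.3% to 4.34% and 4.35% before it reaches 45.9% and 65.4%.

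The promoter windows of these receptor genes are printed because both were lower in LPS than in control. They run from 250 bases before to 50 after an annotated start, from RefSeq on GRCm38.p6, the same assembly as mm10. Vdr lies on chr15:97854425-97910630 on the minus strand, and its window is chr15:97908247-97908546. Rxra lies on chr2:27676440-27762957 on the plus strand, and the window shown is chr2:27676951-27677250. Capitals mark the GC box, GGGCGG on either strand, the core recognised by Sp family factors. The sequences read 5′ to 3′ along each gene's strand.
Vdr: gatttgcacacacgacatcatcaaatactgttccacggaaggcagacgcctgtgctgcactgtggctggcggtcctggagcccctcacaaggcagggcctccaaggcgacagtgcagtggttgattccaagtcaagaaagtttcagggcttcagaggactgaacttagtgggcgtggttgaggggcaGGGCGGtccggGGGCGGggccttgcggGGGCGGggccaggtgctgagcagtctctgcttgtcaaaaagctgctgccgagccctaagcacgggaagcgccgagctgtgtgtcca
Rxra: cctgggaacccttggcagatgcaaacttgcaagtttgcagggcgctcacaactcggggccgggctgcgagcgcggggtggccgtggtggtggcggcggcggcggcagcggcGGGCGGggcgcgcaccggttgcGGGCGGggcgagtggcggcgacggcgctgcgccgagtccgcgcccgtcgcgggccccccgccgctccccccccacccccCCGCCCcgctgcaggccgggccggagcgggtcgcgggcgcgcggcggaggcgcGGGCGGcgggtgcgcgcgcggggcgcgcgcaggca
A second RefSeq start of Rxra has the window chr2:27709042-27709341, which is not shown and held 0 GC boxes. The Vdr window held 3 GC boxes and the Rxra window printed held 4, with a GC content of 61.3% and 83.0% against a median of 52.7% over all 32851 windows of this length. A GC box on either strand occurs in 35.7% of all windows. TATAAA, found in 13.6% of windows, was in neither. Nor was a direct repeat of AGGTCA with any 3 bases between, the form VDR and RXR bind, which is in 0.00609% of windows, nor the same repeat of AGTTCA, which is in none of the 32851. No motif searched overlapped the marked GC boxes. Over the 8 windows of the 6 members with an entry, these repeats were absent as well, which says only that these letters are not in these windows. The kappaB motif, the site of NF-kB, is in 8.46% of all windows and among the members matched only in both Rxrb windows. GC boxes were not confined to the windows printed. The Rxrb windows held 2 and 4 and the Cyp27a1 window 1, while those of Cyp2r1 and Cyp27b1 held none.

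Rxrb, the retinoid X receptor beta, is the other RXR gene with counts in these cells, and it changed by less than its libraries differed. It lies on chr17:34031812-34038399. Its levels were 14.0 and 10.4 CPM without an agent, 17.8 and 10.7 CPM with LPS, and 13.4 and 8.94 CPM with LPS + VD3, so the groups overlapped. In each group library 1 was above library 2. Rxrb did not pass the edgeR test in any comparison: the log2 differences were 0.23 ± 0.31 for LPS against control (95% interval -0.46 to 0.91), -0.36 ± 0.32 for LPS + VD3 against LPS (-1.06 to 0.35) and -0.13 ± 0.32 for LPS + VD3 against control (-0.83 to 0.57). The adjusted p-values were 0.615, 0.524 and 0.778. The sign of each of these differences depended on the analysis, and without LPS 1 the first was -0.19. Rxrg, the remaining RXR gene, had 1 count over all 6 libraries.

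Among the activating enzymes, only the 25-hydroxylase Cyp2r1 had enough counts to be tested, and the 1alpha-hydroxylase Cyp27b1 was close to absent. Cyp2r1 lies on chr7:114549682-114562972 and had 16 and 27 counts in control, 6 and 11 counts with LPS, and 14 and 11 counts with LPS + VD3. These are 2.74 and 4.32 CPM, 1.23 and 2.22 CPM, and 2.93 and 2.19 CPM, with the control libraries above the LPS libraries and LPS + VD3 overlapping both. The log2 difference of LPS against control was -1.03 ± 0.46 (95% interval -2.05 to -0.01, edgeR adjusted p = 0.118). It passed in 3 of 16 other analyses. These were without scaling (-1.32, edgeR adjusted p = 0.042) and the authors' log2 table with either pseudocount. With a pseudocount of 1 that table gave -0.95 (adjusted p = 0.0359 by limma). None of them has TMM scaling, and the median log2 change of all genes was -0.29 without scaling and -0.27 in that table. With libraries left out the difference ran from -1.51 to -0.66, and it was -0.67 without LPS 1. LPS + VD3 differed from LPS by 0.55 ± 0.51 and from control by -0.47 ± 0.42, with edgeR adjusted p-values of 0.534 and 0.413.

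Cyp27a1, a mitochondrial sterol hydroxylase that also 25-hydroxylates vitamin D, lies on chr1:74713574-74737892. It had 7 and 11 counts in control, 1 and 2 counts with LPS, and 1 and 5 counts with LPS + VD3, too few for the filter of the main test. Its control libraries lay above all others, and the LPS and LPS + VD3 libraries overlapped. The LPS level was lower than control by a ratio of 4.88, with a 95% exact counting interval of 1.42 to 25.8 that covers counting error only. LPS + VD3 stood to LPS as 2.00 to 1 (interval 0.428 to 12.4). In an edgeR fit of all 15510 genes with a count, Cyp27a1 changed by -2.19 ± 0.74 on the log2 scale after LPS and did not pass (adjusted p = 0.0832). Cyp27b1, on chr10:127048250-127053006, had 0 counts in the 4 control and LPS libraries, and only 2 and 1 with VD3 added. A count of 0 allows up to 0.248 CPM over the control libraries and 0.305 CPM over the LPS libraries, taking 3 counts as the limit. A fall of Cyp27b1 from control, or a change below these limits, could not be seen at this depth.

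Cyp24a1, the 24-hydroxylase that breaks down the hormone, had over 100 counts in each LPS + VD3 library and at most 3 in any other. It lies on chr2:170482708-170497145 on the minus strand. Control libraries held 2 and 3 counts of Cyp24a1, the LPS libraries held none, and the LPS + VD3 libraries held 112 and 124. Scaled, these are 0.342 and 0.480 CPM, 0 CPM, and 23.4 and 24.6 CPM, with no overlap between groups. LPS + VD3 was 78.8-fold higher than LPS when the LPS group was set at 3 counts (edgeR adjusted p = 7.32e-05). For the counts themselves, 236 against 0 without that setting, the 95% exact counting interval starts at 63.6. It is not an interval of the 78.8-fold value. LPS + VD3 was 55.1-fold above control, a log2 change of 5.78 ± 0.37 (edgeR adjusted p = 4.14e-06). Both increases passed in each of the 14 other analyses that list Cyp24a1. Cyp24a1 entered the tests only through the LPS + VD3 libraries, so these passes and p-values describe it and are not support. LPS against control set 0 counts against 5, where the 95% exact counting interval of control over LPS starts at 0.745 and so includes no change, and did not pass (edgeR adjusted p = 0.0643), except without scaling (0.0434) and with GC offsets (0.0328). The exons of Cyp24a1 share 83 bases, 2.3% of their length, with Pfdn4 on the opposite strand, and the sources used here do not state the strand setting of the count.

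**Figure D3:**
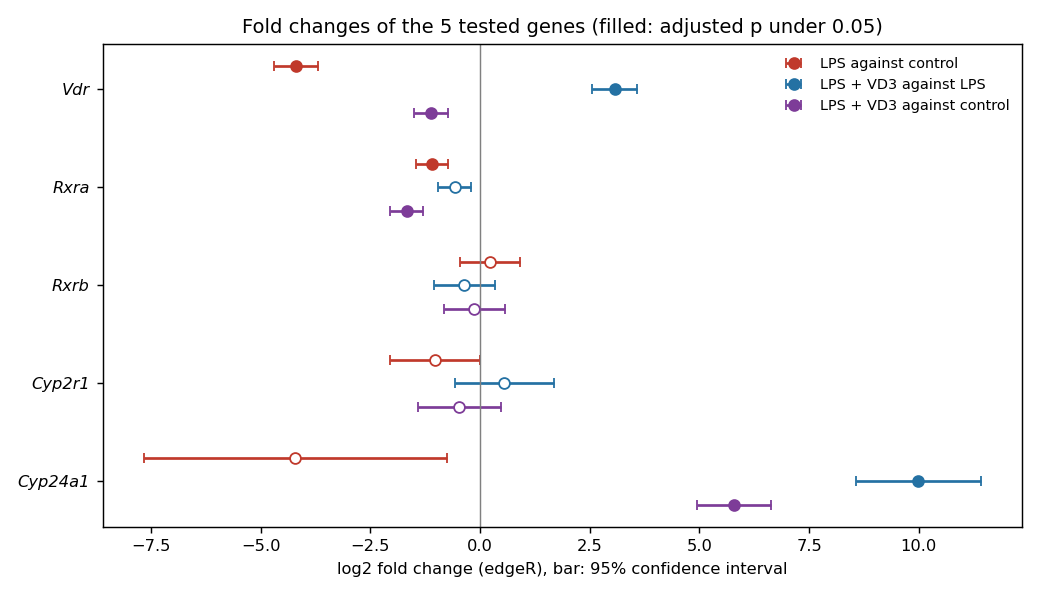
Log2 fold changes of the 5 tested genes in the 3 comparisons, from edgeR, with 95% confidence intervals as bars and filled points where the adjusted p was under 0.05. Vdr moves by -4.19, 3.07 and -1.12, Rxra is negative in all 3 comparisons, and Rxrb lies across 0. The Cyp24a1 points of both comparisons with LPS rest on a group at 0 counts, so their position is set in part by the prior count.

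The 3 comparisons share groups, so their values are given side by side and not as separate evidence. Cyp24a1 entered the tests through its high group, so it is left out of these counts. In LPS against control, 2 of the 4 other tested members passed, Vdr and Rxra, both lower, where 31.8% of all 10724 genes passed, 15.7% higher and 16.2% lower. In LPS + VD3 against LPS, 1 of 4 passed, Vdr, which was higher, where 3.83% of all genes passed, 2.25% higher and 1.59% lower. In LPS + VD3 against control, 2 of 4 passed, Vdr and Rxra, both lower, where 35.0% of all genes passed, 17.7% higher and 17.3% lower. These counts describe genes that were picked with earlier results known, and Cyp27a1 and Cyp27b1 are not in them. The balance of calls over all genes depends on scaling. LPS against control had 1679 genes higher and 1732 lower, but 1086 and 3056 without TMM scaling, where the median log2 change of all genes was -0.29 instead of 0.01. LPS + VD3 against control had 1895 and 1854, but 1171 and 3351 without scaling, at a median of -0.32. In the authors' log2 table, which has no such scaling, the balance was 920 to 2801 and 987 to 3084. The calls of Vdr and Rxra listed here were the same with and without scaling.

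Levels can be compared between genes only per length, here as CPM per kilobase of the union of exons. In control the order was Rxra (37.2), Vdr (13.9), Rxrb (3.07), Cyp2r1 (1.67), Cyp27a1 (0.681) and Cyp24a1 (0.115), with Cyp27b1 at 0, and no neighbours in this order overlapped between libraries. In LPS the level per kilobase was 17.4 for Rxra and 3.59 for Rxrb. Cyp2r1 (0.816) and Vdr (0.757) came next and overlapped, Cyp27a1 was at 0.140, and Cyp24a1 and Cyp27b1 were at 0. The receptor thus stood beside a weakly expressed hydroxylase. In LPS + VD3, Rxra stood at 11.6 per kilobase, followed by Cyp24a1 (6.75) and Vdr (6.37), which overlapped. Rxrb (2.81) and Cyp2r1 (1.21) followed, and Cyp27a1 (0.277) and Cyp27b1 (0.120) overlapped at the bottom. With the length of the longest transcript instead, Vdr was at 0.978 and 8.24 per kilobase in LPS and LPS + VD3 and came before Cyp2r1 and Cyp24a1, and the other places were the same.

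Around the 7 genes, 37 further genes of the vitamin D pathway were listed by role, of which 30 could be tested. In LPS against control 1 of them rose and 7 fell, at a median log2 change of -0.13 against 0.01 over all tested genes. The share that passed, 8 of 30, is near the 31.8% of all genes. Enzymes that make or remove 7-dehydrocholesterol, the sterol from which skin makes vitamin D3, were among those that fell, while Ebp did not pass (-0.18 ± 0.19). Dhcr7, which reduces 7-dehydrocholesterol to cholesterol, changed by -2.31 ± 0.23 on the log2 scale, from 114 and 117 CPM to 29.1 and 17.6 CPM (edgeR adjusted p = 3.4e-05). Sc5d, which makes 7-dehydrocholesterol, fell from 50.5 ± 3.93 to 25.3 ± 2.13 CPM (SD, n = 2). These enzymes belong to cholesterol synthesis, and no gene of the list makes vitamin D3 itself.

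Of 10 coactivators, Ncoa1, which binds nuclear receptors once they hold their ligand, fell by 1.00 ± 0.18 on the log2 scale after LPS. Crebbp, the acetyltransferase CBP, rose from 39.7 and 42.1 to 61.5 and 72.9 CPM, a log2 change of 0.72 ± 0.19 (edgeR adjusted p = 0.0152). The Crebbp call was lost without scaling (0.101), in the authors' log2 table (0.0995), without control 1 (0.135) and without control 2 (0.0975). Among the corepressors, Hr, the hairless protein that binds VDR, fell by 1.14 ± 0.28 on the log2 scale. The Hr call was lost in DESeq2 (0.0582) and without control 2 (0.149). Of 4 chromatin remodelling partners, Baz1b, the Williams syndrome transcription factor, fell by 0.84 ± 0.16 on the log2 scale. None of the 4 electron donors of the hydroxylases passed the edgeR test, with Por, which feeds microsomal P450 enzymes such as CYP2R1, at -0.46 ± 0.18 (adjusted p = 0.0736, 1 of the 4 at an unadjusted p under 0.05). Por passed in other analyses, at 0.00751 without scaling, 0.0487 with the replicate block and 0.00907 without LPS 1. Without control 2, 5 pathway genes passed in all.

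When VD3 was added to LPS, 0 of the 30 pathway genes passed the edgeR test, where 3.83% of all genes did. At an unadjusted p under 0.05 there were 6, with 4 higher and 2 lower. DESeq2 and limma-voom also called 0. The replicate block gave 2, Med1 among them (0.52, adjusted p = 0.0475), and leaving out LPS 2 gave 12. The median log2 change was 0.08, against 0.00 over all genes. Med1, the Mediator subunit that binds VDR, differed by 0.52 ± 0.16 (edgeR adjusted p = 0.115), and the corepressor subunit Tbl1xr1 by 0.67 ± 0.21 (0.109).

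In LPS + VD3 against control, 10 of 30 pathway genes passed, 3 higher and 7 lower, where 35.0% of all genes passed. Dhcr7 fell by 2.74 ± 0.23, Ncoa1 by 1.18 ± 0.18 and Por by 0.99 ± 0.18 on the log2 scale, and Crebbp rose by 1.01 ± 0.19. These 4 calls held in every other analysis. Sc5d (-0.85), Hr (-0.93), Med1 (0.64) and Snw1 (0.56), a coactivator also called SKIP, passed as well. Each of them lost its call in at least 1 analysis without a library. Without control 2 the adjusted p was 0.0734 for Sc5d, 0.249 for Hr, 0.127 for Med1 and 0.223 for Snw1. The number of pathway genes that passed was 6 without control 1, 5 without control 2, and 16 without LPS 1 or LPS 2. Genes of vitamin D transport were not expressed to any extent: Gc, the serum binding protein, had no counts, and the endocytic receptors Lrp2 and Cubn had at most 1 count in a library. The liver hydroxylase Cyp3a11 and Cyp11a1, which opens steroid synthesis, had 0 counts throughout, and Cyp2j6 at most 2 in a library.

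**Figure D4:**
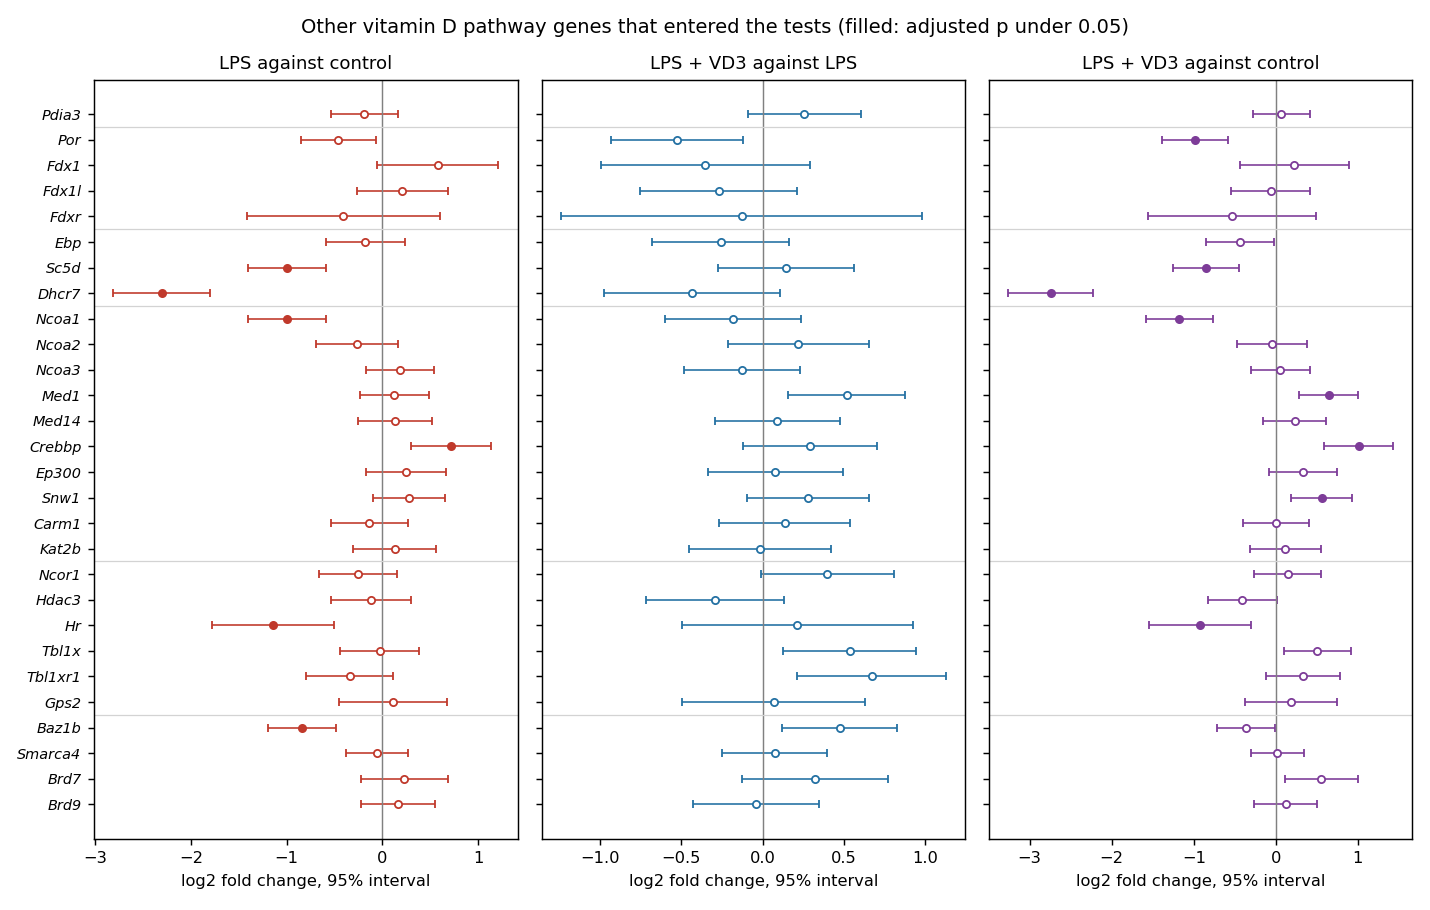
Log2 fold changes of 28 of the 30 other pathway genes that were tested, grouped by role between grey lines, with 95% confidence intervals from edgeR and filled points where the adjusted p was under 0.05. The cholesterol enzymes Sc5d and Dhcr7 lie left of 0 in both outer panels, and no point is filled in the middle panel.

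The genes whose profile over the 6 libraries was most like that of a called member were found among 9063 candidates, by the root mean square difference of log2(CPM + 1) after each gene was centred on its own mean. They were picked for likeness, so their values are a description. Nearest to Vdr were St6gal1 (0.667), Cytip (0.677), Plcb2 (0.681), Fli1 (0.739) and Tcf7l2 (0.755). Plcb2, a phospholipase C, stood at 249 and 225 CPM in control, at 50.6 and 44.2 CPM with LPS, and at 147 and 162 CPM with both agents. The Ets factor Fli1 was at 57.5 and 65.6, then 10.04 and 14.1, then 31.4 and 40.8 CPM. Both were lowest in LPS and stood between the other groups in LPS + VD3, but they fell 4.99-fold and 5.08-fold after LPS, against 18.3-fold for Vdr. By this difference, none of the 5 genes came as close to Vdr as the genes near Rxra did to Rxra. The measure counts the size of a change as well as its shape, and Vdr changed more than Rxra. Pearson correlations with Vdr over the 6 libraries ran from 0.915 (St6gal1) to 0.998 (Plcb2). With Rxra, Arhgap9 correlated at 0.998 and Med22 at 0.994. The genes nearest to Rxra included Arhgap9 (0.0440), Pik3r2 (0.0672), Med22 (0.0838) and Tuba4a (0.0899). Arhgap9, a GTPase-activating protein, was at 64.7 and 67.0 CPM in control, at 35.9 and 26.9 CPM with LPS, and at 22.8 and 19.1 CPM with both agents. Nearest to Cyp24a1 were Sall2 (0.597), Hbegf (0.696), Plcl1 (0.781), Srgap3 (0.840) and Nrip1 (0.901). Sall2, a zinc finger factor, was at 2.05 and 2.40 CPM in control, at 1.64 and 2.42 CPM with LPS, and at 27.2 and 28.0 CPM with both agents. The EGF receptor ligand Hbegf was at 7.87 and 5.6, then 16.2 and 15.4, then 198 and 197 CPM, so unlike Cyp24a1 it was also above control in LPS. Nrip1, a nuclear receptor cofactor, was at 42.4 and 47.2, then 26.4 and 29.1, then 183 and 228 CPM.

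**Figure D5:**
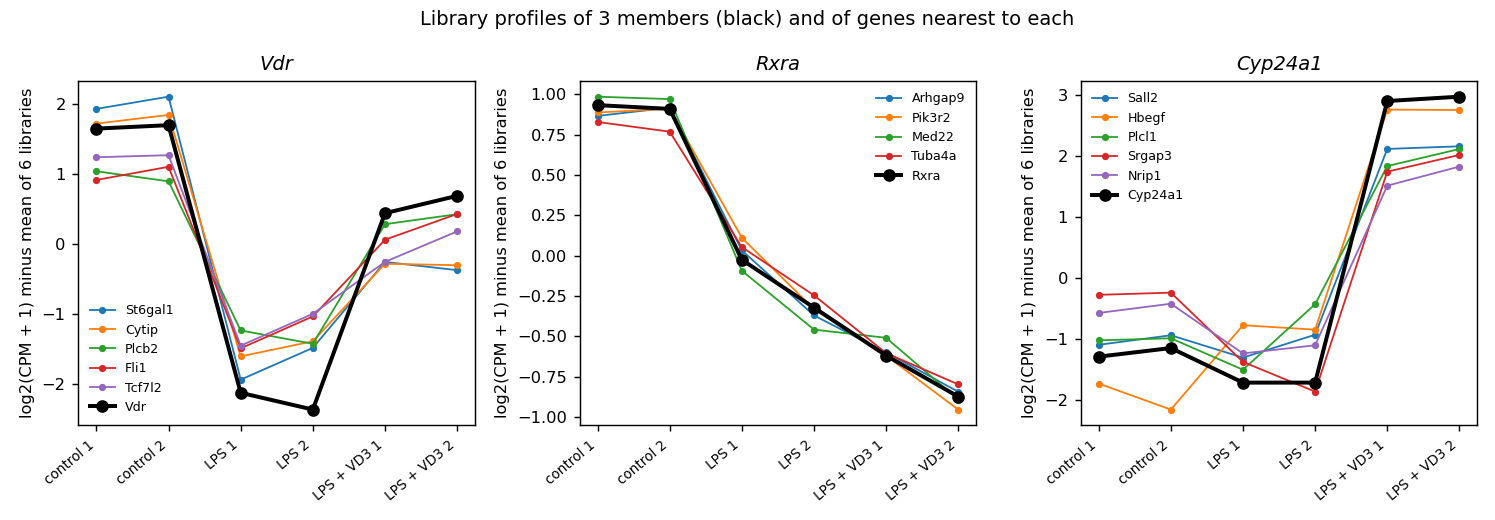
Log2(CPM + 1) in each library minus the gene's mean over 6 libraries, for Vdr, Rxra and Cyp24a1 (black) and 4 or 5 of the genes nearest to each (colours); lines only join the points of a gene. By root mean square difference, which grows with the size of a change, the genes nearest to Rxra lie within 0.0440 to 0.0899 of it. Those of Vdr differ by 0.667 to 0.755 and those of Cyp24a1 by 0.597 to 0.901.

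The nearest protein-coding gene of the count table that does not overlap the member was then set beside it, on each side. Pfdn4, which overlaps Cyp24a1, is therefore not among these genes. This choice was made after the members' values were seen. Of these 14 genes 7 could be tested, and 2 of them passed in LPS against control, a share near the 31.8% of all genes. Bcas1, 54862 bases from Cyp24a1, had 41 and 40 counts in control, 3 and 3 counts with LPS, and 8 and 12 counts with both agents. After LPS its log2 change was -3.41 ± 0.45 (edgeR adjusted p = 0.000235), and against control LPS + VD3 stood at -1.71 ± 0.35. Its difference between LPS + VD3 and LPS was 1.70 ± 0.57 and did not pass (edgeR adjusted p = 0.132, unadjusted 0.014). Pde3b, a cyclic nucleotide phosphodiesterase 10430 bases from Cyp2r1, had a log2 change of -2.39 ± 0.20 after LPS, from 80.9 and 84.2 to 13.1 and 18.4 CPM (edgeR adjusted p = 1.2e-05), and was at 18.4 and 18.3 CPM in LPS + VD3. The tested neighbours of Vdr and Rxra did not pass: Tmem106c, 53569 bases from Vdr, differed by -0.41 ± 0.22 after LPS (edgeR adjusted p = 0.188), and Wdr5, 139904 bases from Rxra, by -0.32 ± 0.16 (0.167).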

How the data were processed

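RNA extraction used Qiagen's RNeasy Micro kit and library construction KAPA's mRNA HyperPrep kit, per the labels' protocols. The deposited table holds the authors' whole-number counts per gene and library. TopHat2, edgeR and the mm10 build are named, without versions, in the submitters' processing notes; the sources used here do not state the counting program, its annotation or its strand setting. A second deposited table holds the authors' log2 values, equal to log2(CPM + 1) of those counts within 0.00423. It lists 10343 genes, without Cyp24a1, Cyp27a1 and Cyp27b1, and served only as an alternative.

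The test was edgeR 4.0.16 under R 4.3.3 (filterByExpr defaults with minimum count 10 and minimum total 15, TMM, glmQLFit with legacy = FALSE, 3 group means over 6 libraries, 3 residual and 7.01 prior degrees of freedom). Each contrast was adjusted by Benjamini-Hochberg over 10724 genes and called at 0.05. The SE is the log2 fold change over the root of the F statistic. The code was tested on simulated data. A group at 0 counts is set at 3 counts over its libraries; ratios have 95% exact intervals; neither covers more than counting error, because PCR reads lacking molecular identifiers do not stand for separate molecules.

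The members and all lists were chosen with earlier results of these data known. Named are all members, listed pathway genes called in any contrast or defining transport, hydroxylase and RXR genes, and the 5 tested genes (mean log2 CPM at least 2) nearest to each called member; Ebp, Tbl1xr1 and the neighbouring genes were chosen after their values were seen. A few genes that this rule takes are counted but not reported by name here. Exon lengths and positions are from GENCODE M21 and promoters from RefSeq; 6 of 7 members had a promoter entry. Markers Siglecf, Chil3 and Plet1 were matched under synonyms or as listed, and Ly6g was not matched.

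Alternatives were DESeq2 1.42.0, no scaling, no filter, the 4 compared libraries only, a replicate block, limma-voom (limma 3.58.1), per-library GC offsets (loess span 0.3), the log2 table with pseudocounts of 1 and 0.5, and each library left out. The edgeR legacy option and the pathway counts without each library were added after seeing the data.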

Additional observations from a re-analysis of the deposited data

How the results depend on the processing

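The calls of Vdr in 3 comparisons and of Rxra against control in 2 kept direction and call in 16 of 16 alternatives. Those of Cyp24a1 in LPS + VD3 against LPS and against control did so in 14 of 14. Cyp24a1 entered the tests only through its high group, so this tally describes it and is not support. The log2 changes of Vdr ranged from -4.49 to -4.05, from 2.77 to 3.22 and from -1.45 to -1.0. The number of genes called over the whole table was less stable. With each library left out it ran from 1962 to 4798 for LPS against control (3411 with all), from 2141 to 5350 for LPS + VD3 against control (3749), and from 54 to 3653 for LPS + VD3 against LPS (411), the latter lowest without LPS + VD3 2 and highest without LPS 2. LPS + VD3 against LPS also gave 169 without the filter, 252 with its 4 libraries only, 1152 with the replicate block and 774 with GC offsets. The cause was not tested.

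Rxrb changed sign in LPS against control without scaling (-0.0686), with GC offsets (-0.0143), in the deposited log2 table (-0.0833 and, with a pseudocount of 0.5, -0.0873) and with libraries left out (-0.19 to 0.55). It did so in LPS + VD3 against LPS with GC offsets (0.13) and libraries left out (-0.68 to 0.055), and in LPS + VD3 against control likewise (0.11, and -0.45 to 0.11). Cyp2r1 in LPS against control passed without scaling (-1.32) and in the log2 table (-0.95 and -1.11), and Cyp24a1 without scaling (-4.40) and with GC offsets (-4.23). Rxra in LPS + VD3 against LPS ran from -0.72 to -0.43 with libraries left out and was -0.29 with GC offsets (adjusted p = 0.202). Among pathway genes that were not called, signs turned in LPS against control for Med1 (-0.17 without scaling, -0.16 in the log2 table at either pseudocount, -0.0131 to 0.25 with LPS 2 or LPS 1 left out) and Snw1 (-0.0165 without scaling, -0.0073 and -0.0074 in the log2 table). They turned in LPS + VD3 against LPS for Sc5d with GC offsets (-0.0781) and Ncoa1 with libraries left out (-0.34 to 0.0022).

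The groups share replicate numbers, and the source names LPS1 plus VD3 and LPS2 plus VD3 repeat those of the LPS libraries, which may mean shared cells, but no label says what a number marks. Deviations of same-numbered libraries correlated across 10724 genes at 0.214 (control and LPS), 0.115 (control and LPS + VD3) and 0.221 (LPS and LPS + VD3), over 2 numbers only, too few to decide on a pairing, so the block stayed an alternative. The replicate block raised the count for LPS + VD3 against LPS from 411 to 1152, gave Rxra there an adjusted p of 0.0303 (log2 change -0.58), and changed no other call of the 7 genes. Depth limits Cyp27b1 and Cyp27a1, which were at 0 to 2 and 1 to 11 counts per library.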
